A study of Gallus gallus with 6 samples.

Results

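Cadherins are calcium-dependent adhesion molecules that join neighbouring cells through repeated extracellular domains. Type I classical cadherins, such as E-cadherin (CDH1) of epithelia and N-cadherin (CDH2) of neural tube and placodes, and the related type II cadherins bind catenins at their inner ends and so connect to actin. Protocadherins, and the giant FAT and CELSR proteins that carry planar polarity signals, share the extracellular repeats but lack the classical catenin-binding tail. In the vertebrate head, ectoderm, neural tube, placodes and neural crest carry different sets of classical cadherins, and the sets change as crest cells leave the neural tube and as placodes fold inward. All genes were taken whose name in the count table was CDH with a number, CDHR, PCDH, CELSR, FAT1 to FAT4 or DCHS. These were 40 of 24356 genes, and 39 of the 40 were among the 21411 genes with at least 1 count. They comprised 4 type I cadherins, 11 type II cadherins, 6 other cadherins, 7 delta protocadherins, 5 clustered protocadherins, 2 other protocadherins, 4 FAT genes and 1 CELSR gene. No gene was named DCHS in the table, and CDH3, the P-cadherin gene, was likewise not analysed here.

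Sorted cells of the chick head ectoderm were profiled by RNA sequencing, with 3 samples of Sox8OE and 3 of Control. Embryos of both groups were electroporated at head fold stages, were kept at 38 °C for 16 to 24 hours and had their own otic placode removed before double-positive cells were sorted. Sox8OE cells carried pCES-Sox8-mCherry, which expresses the transcription factor Sox8 with a red fluorescent protein, and pTK-Lmx1aE1-EGFP, in which an otic enhancer near LMX1A drives green fluorescent protein. Control cells carried pCES-mCherry and pCES-EGFP, which need no otic enhancer to be active. The comparison therefore joins the Sox8 construct with selection for otic enhancer activity, and these cannot be told apart. The study's methods speak of biological replicates, while the labels only number them and do not say which embryos or cultures went into each, so p-values measure the spread between these samples. Levels below are normalised counts, that is, counts divided by the DESeq2 size factor of the sample, and they are not divided by gene length, so levels of different genes are not compared. A gene was called when its DESeq2 adjusted p was under 0.05 and its log2 fold change, given as Sox8OE minus Control with its standard error, was over 1.5 in either direction.

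Totals ranged from 26326573 to 46586658 counts per sample. SOX8 had 854 to 1685 normalised counts in Control and 8554 to 9889 in Sox8OE, which fits the labels. Sox8OE replicate 1 stood apart from the rest of its group. After the variance-stabilising transformation of DESeq2, its values correlated at Pearson r = 0.978 to 0.982 with the Control samples. With Sox8OE replicates 2 and 3 they correlated at only 0.937 and 0.954, across genes that are not independent. Ribosomal protein genes took 10.7% and 8.25% of the counts in Sox8OE replicates 2 and 3 and 5.03% to 6.86% in the other 4 samples. Results are therefore also given without Sox8OE replicate 1. Leaving out the sample most like Control tends to widen the difference between groups by the choice itself. The 2 Sox8OE samples kept also had the smallest totals, 28650234 and 26326573 counts, against 35377763 to 46586658 in the other 4 samples. In that comparison the group cannot be told apart from depth and ribosomal share. Of the marker lists for the labelled cell type, the summed level of 7 surface ectoderm genes was 29933 to 34835 in Control and 42482 to 52871 in Sox8OE, and that of 4 placode genes was 3905 to 5254 and 5965 to 8115. The summed level of 6 head mesenchyme genes was 1807 to 2506 in Control and 531 to 587 in Sox8OE. The neural crest genes found, 4 of 5, summed to 9391 to 12103 in Control and 11138 to 14926 in Sox8OE, with SOX10 alone carrying the higher sum. The 4 neuron genes summed to 7190 to 9844 and 6793 to 7765, and the 4 of 5 neural tube genes found to 5831 to 9270 and 6153 to 7287. PAX6 was the largest neural tube term in every sample. SOX2 and SOX21 had log2 fold changes of -0.91 and 2.56, overlapped between groups and were not called. The endothelium and blood genes, 7 of 8 found, summed to 678 to 1329 and 626 to 2674, with PECAM1 the largest term in every sample.

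To ask which adhesion genes differed between the groups, the 40 genes were read out of the fit over all genes. An adjusted p was given for 33 of them, and the other 7 had too few counts, 1 of these having none. CDH4, CDH9, PCDH17 and CDHR2 rose in Sox8OE, and CDH6, CDH8, CDH10 and PCDH18 fell. The 4 genes called higher were 12.1% of those tested, against 3.32% of all 16032 genes tested, and the 4 called lower were 12.1%, against 0.961%. The count at adjusted p alone was the same 8 genes, where 3.94% of all genes were higher and 1.3% were lower. The Sox8OE samples were without exception above Control at 7 members (21.2%) and below it at 8 (24.2%), whereas 10.1% and 9.09% of all genes lay so. The median log2 fold change of the 33 members was 0.13 and that of all genes was 0.079, and 19 members had a positive and 14 a negative value. In bulk samples, fewer cells of a type and less RNA per cell cannot be told apart, and this holds for every change below.

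**Figure D1:**
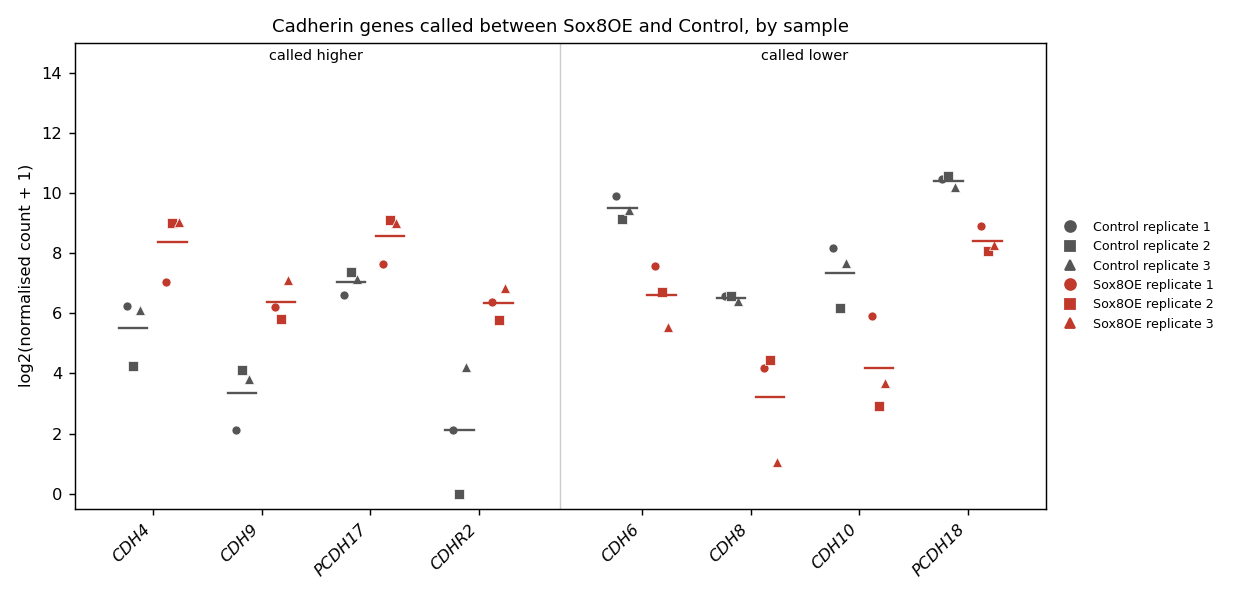
Level of the 8 called cadherin genes in each sample, as log2 of the normalised count plus 1 on the vertical axis (grey, Control; red, Sox8OE; marker shape, replicate number; bar, mean of the log values of 3 samples). At each of the 8 genes the groups do not overlap, and at CDH4, PCDH17, CDH6, CDH10 and PCDH18 the sample of Sox8OE closest to Control is replicate 1.

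The 8 calls rested on the test used. The edgeR quasi-likelihood test, which called 0.276% of all genes, called 0 of the 31 members it tested, with 13 at an unadjusted p under 0.05, and limma voom also called 0 of 31, with 14 at an unadjusted p under 0.05. DESeq2 had 15 of 33 members at that level. These were 41.9%, 45.2% and 45.5% of the members tested with edgeR, limma voom and DESeq2, against 16.4%, 18.97% and 21.8% of all genes. All 8 genes kept their direction in both, and the smallest adjusted p was that of PCDH18, 0.0644 with edgeR and 0.0730 with limma voom. CDH4, CDH6 and PCDH18 passed both DESeq2 thresholds without any 1 of the 6 samples. Without Sox8OE replicate 1, 10 of 36 members passed, 4 higher and 6 lower, where 9.31% and 8.93% of all genes passed. These 10 were the 8 genes together with PCDH8 and CDHR1. In that fit 18 of the 36 members (50%) had an unadjusted p under 0.05 with DESeq2, near the 46.5% of all genes. Small p-values given below without Sox8OE replicate 1 are to be read against that share.

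**Figure D2:**
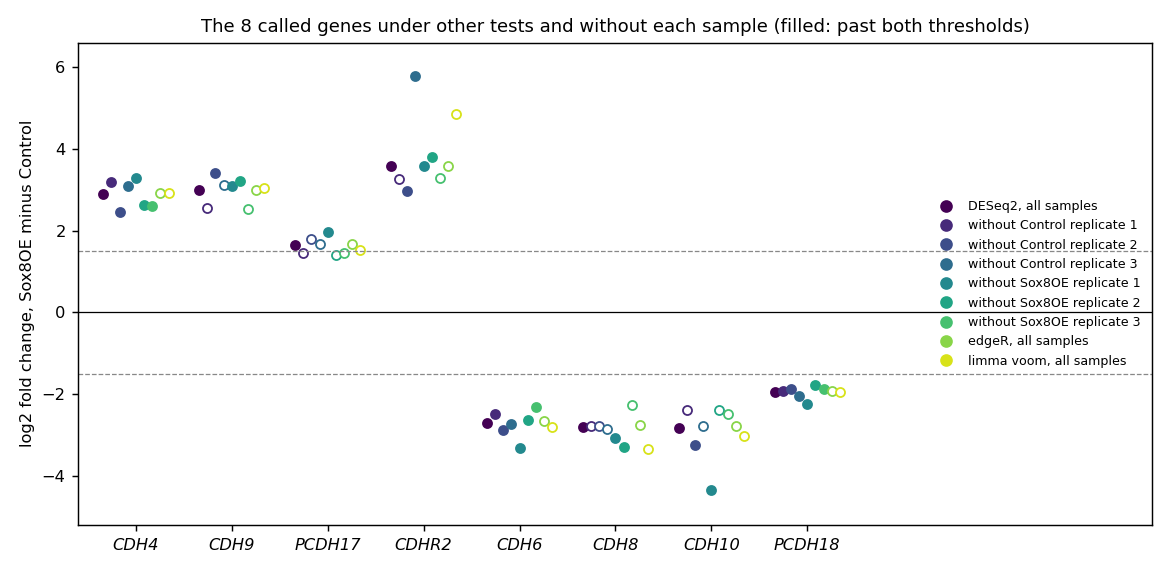
Log2 fold change of each called gene, Sox8OE minus Control, with all samples under DESeq2, edgeR and limma voom, and under DESeq2 without each sample in turn (colours; dashed lines, the threshold of 1.5). Filled points passed both thresholds: all DESeq2 points of CDH4, CDH6 and PCDH18 are filled, and no edgeR or limma voom point is.

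The type I cadherins include those of ectoderm and placodes. CDH1 (ENSGALG00000000608), the epithelial E-cadherin, had 201, 421 and 301 normalised counts in Control and 519, 859 and 473 in Sox8OE, given here and below in the order of replicates 1 to 3. Every Sox8OE sample was above every Control sample, but the mean levels of 308 ± 110 and 617 ± 211 (SD, n = 3 each) did not differ past the threshold (log2 fold change 1.0 ± 0.44, adjusted p = 0.158). CDH2 (ENSGALG00000015132), the N-cadherin gene, had 6581, 5854 and 5211 normalised counts in Control and 5171, 4249 and 4417 in Sox8OE. Here every Sox8OE sample was below every Control sample, by a small margin for Sox8OE replicate 1, and the difference did not pass either (log2 fold change -0.35 ± 0.28, adjusted p = 0.450). Without Sox8OE replicate 1 the values were 1.1 for CDH1 (adjusted p = 0.0202) and -0.45 for CDH2 (adjusted p = 0.0751), neither past the fold threshold.

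CDH1 and CDH2 were then set against each other within each sample, where gene length cancels from the difference between groups. The CDH1 count was 3.06%, 7.20% and 5.77% of the CDH2 count in Control. It was 10.045%, 20.2% and 10.7% in Sox8OE, above all Control samples, and replicate 1 of Sox8OE was close to replicate 3. The mean log2 ratio was -4.31 ± 0.64 in Control and -2.95 ± 0.56 in Sox8OE (SD, n = 3 each), a difference of 1.37 or 2.58-fold. The exact two-sided permutation test gave p = 0.1, which is the smallest p that 3 samples against 3 allow. The summed level of the surface ectoderm markers was higher in every Sox8OE sample, as that of CDH1 was, with KRT18, a keratin of simple epithelia, the only 1 of the 7 that was called. Single genes of that list differed: TP63 lay lower in every Sox8OE sample (log2 fold change -0.85, adjusted p = 0.200). EPCAM, with the highest counts of the list in Control, had a log2 fold change of 0.03, but its Sox8OE samples were split. It had 15872 to 16766 normalised counts in Control and 27325, 10127 and 12539 in Sox8OE. Without Sox8OE replicate 1 its log2 fold change was -0.54 (adjusted p = 0.0224 with DESeq2). The part of these markers in the ratio was not tested.

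**Figure D3:**
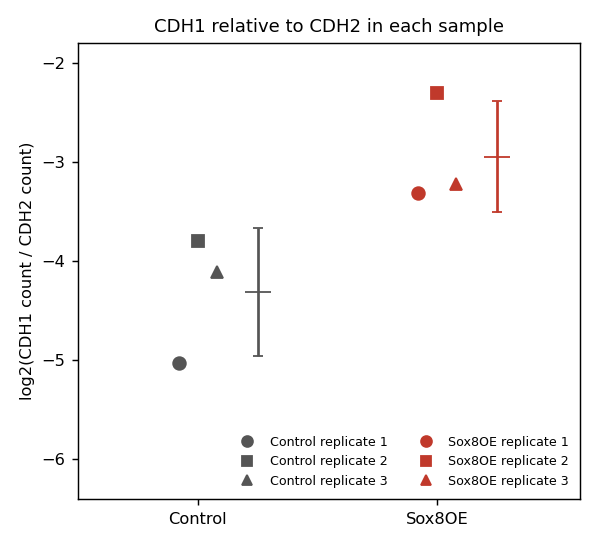
Log2 of the CDH1 count over the CDH2 count in each sample (vertical axis) by group; shapes give the replicate number, and the horizontal and vertical bars give the mean and SD of 3 samples. The Control samples lie between -5.03 and -3.80 and the Sox8OE samples between -3.32 and -2.31.

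CDH4 (ENSGALG00000005102), R-cadherin of retina and brain and listed here with the ectoderm and placode types, differed most within the type I class. It had 74.1, 18.05 and 67.4 normalised counts in Control and 131, 518 and 529 in Sox8OE. Sox8OE replicates 2 and 3 were near each other, and replicate 1 lay between them and Control without overlap. The mean rose from 53.2 ± 30.6 to 392.5 ± 227 (SD, n = 3 each), and the log2 fold change was 2.89 ± 0.67 (7.40-fold, adjusted p = 0.00140 with DESeq2, 0.146 with edgeR). It was 3.29 without Sox8OE replicate 1 (adjusted p = 1.35e-08). CDH15, the M-cadherin of muscle, ranged from 184 to 377 in Control and from 198 to 381 in Sox8OE, so the groups overlapped over nearly their whole range.

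The type II class held 1 gene that rose and 3 that fell among 9 tested, with a median log2 fold change of -0.88. CDH6 (ENSGALG00000012917), which in the chick marks the dorsal neural folds and crest before migration, had 945, 561 and 699 normalised counts in Control and 190, 104 and 45.2 in Sox8OE. The highest Sox8OE sample, replicate 1, was well below the lowest Control sample. The mean fell from 735 ± 195 to 113 ± 73.0 (SD, n = 3 each), and the log2 fold change was -2.69 ± 0.53 (6.47-fold lower, adjusted p = 7.45e-05 with DESeq2, 0.0912 with edgeR). Without Sox8OE replicate 1 it was -3.31 (adjusted p = 7.79e-14).

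None of the other cadherins listed with the crest types was called. CDH7 (ENSGALG00000013782), a cadherin of migrating crest in the chick, had 325, 193 and 347 normalised counts in Control and 391, 201 and 438 in Sox8OE, which overlapped (log2 fold change 0.25 ± 0.46, adjusted p = 0.756). CDH11 (ENSGALG00000039985), a cadherin of mesenchyme and of migrating crest, had 5453, 3565 and 3949 in Control and 3116, 2044 and 1908 in Sox8OE. The groups did not overlap, but the log2 fold change of -0.88 ± 0.36 missed the adjusted p threshold (0.126). Leaving out Sox8OE replicate 1 gave -1.14 (adjusted p = 3.82e-05), still short of the fold threshold. CDH20 (ENSGALG00000012906), known in the chick as a cadherin of motor neurons and listed here with the crest types, had 89.5, 73.0 and 27.7 in Control and 159, 109 and 170 in Sox8OE. Its Sox8OE samples were all above Control, with a log2 fold change of 1.21 ± 0.57 that did not pass (adjusted p = 0.200). CDH19 (ENSGALG00000013775), of crest-derived glial precursors, had 0, 0 and 23 counts in Control and 3, 0 and 2 in Sox8OE before normalisation, too few for an adjusted p.

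**Figure D4:**
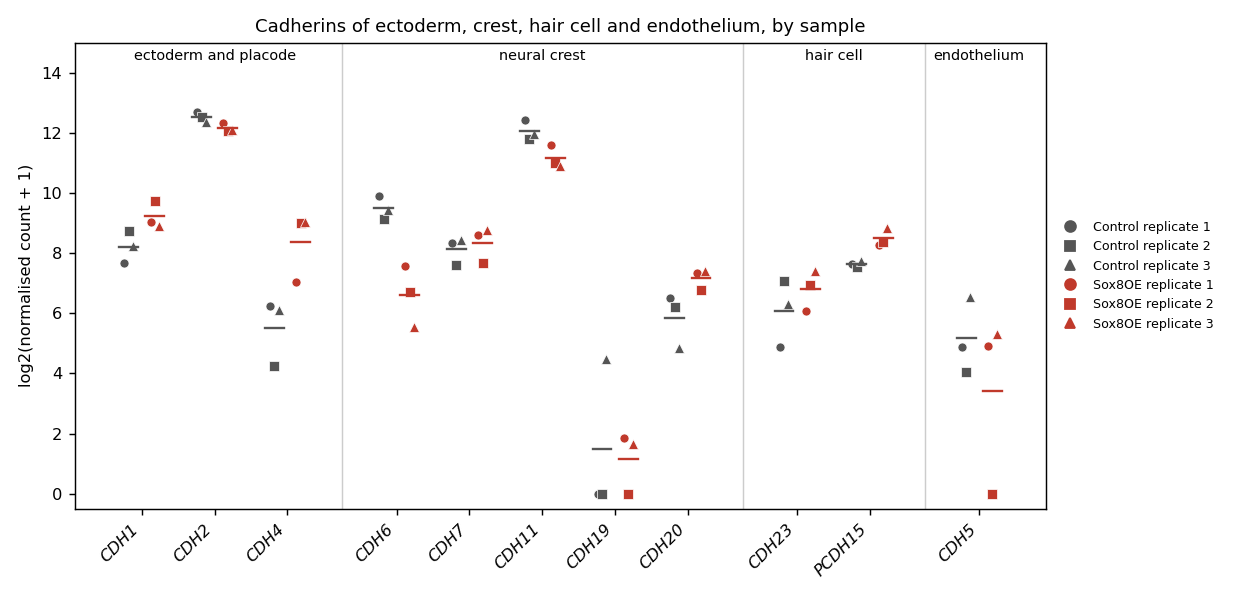
Level of the cadherins of ectoderm and placode, neural crest, hair cell and endothelium in each sample, as log2 of the normalised count plus 1 on the vertical axis (grey, Control; red, Sox8OE; shape, replicate number; bar, mean of 3 log values). Of the genes listed with the crest types only CDH6 was called lower, CDH11 lies lower and CDH20 higher without overlap, and CDH7 overlaps. Of those listed with the ectoderm and placode types only CDH4 was called.

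Placed side by side, the genes listed with the crest types had log2 fold changes of -2.69 (CDH6), -0.88 (CDH11), 0.25 (CDH7) and 1.21 (CDH20). Those listed with the ectoderm and placode types had -0.35 (CDH2), 1.0 (CDH1) and 2.89 (CDH4). The ranges of these groups overlapped, and 1 gene of each was called. Part of the head mesenchyme markers lay lower in Sox8OE, as CDH6 and CDH11 did. Of the 6 genes, TWIST1, PDGFRA and ALX1 were called lower, and FOXC1 had under 10 counts in every sample. PRRX1 and FOXC2 had log2 fold changes of 1.37 and 1.38, but both overlapped between groups and were not called. FOXC2 had few counts, 10, 10 and 4 in Control and 1, 36 and 17 in Sox8OE before normalisation. A lower level was thus not seen across the whole list. ALX1, a regulator of head mesenchyme, had 1165, 1013 and 712 normalised counts in Control and 76.7, 7.69 and 48.4 in Sox8OE. The part of the mesenchyme genes in the lower levels of CDH6 and CDH11 was not tested. None of the neural crest markers was called. SOX10, which also marks otic cells, lay higher in Sox8OE (log2 fold change 1.02, adjusted p = 0.0317), and TFAP2B lay lower without overlap (-0.49, adjusted p = 0.263). The 3 crest markers other than SOX10 summed to 5810 to 7474 in Control and 4190 to 5253 in Sox8OE. TFAP2B was the largest term of this sum in every sample. FOXD3 and PAX7 went in opposite directions and overlapped between groups (log2 fold changes 0.63 and -0.55, adjusted p = 0.627 and 0.483 with DESeq2). The part of the crest markers in the levels of CDH6 and CDH11 was not tested either.

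The remaining calls of the type II class were CDH8, CDH9 and CDH10, which are known from the mouse for sorting neurons and their synapses. CDH10 (ENSGALG00000032022) had 287, 71.4 and 202 normalised counts in Control and 59.4, 6.59 and 11.8 in Sox8OE. The groups came close at Control replicate 2 and Sox8OE replicate 1 but did not overlap. The log2 fold change was -2.84 ± 0.84 (adjusted p = 0.0208 with DESeq2, 0.225 with edgeR), and it passed without Control replicate 2 or without Sox8OE replicate 1 but not without any of the other 4 samples (adjusted p up to 0.250). CDH8 (ENSGALG00000005319) had 95.1, 94.9 and 83.1 in Control and 17.2, 20.9 and 1.07 in Sox8OE. Control samples were nearly equal and Sox8OE samples were all far lower, replicate 1 included. The log2 fold change was -2.80 ± 0.84 (adjusted p = 0.0230 with DESeq2, 0.240 with edgeR), and the call was kept without Sox8OE replicate 1 or 2 and lost without each of the others, with an adjusted p of up to 0.190.

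CDH9 (ENSGALG00000012923) went the other way. It had 3.32, 16.5 and 12.9 normalised counts in Control and 72.4, 54.9 and 135 in Sox8OE, from as few as 3 reads in Control replicate 1. Sox8OE replicate 1 lay between the other samples of its group, unlike at CDH4 and CDH6. The mean rose from 10.9 ± 6.81 to 87.6 ± 42.4 (SD, n = 3 each), and the log2 fold change was 2.99 ± 0.77 (adjusted p = 0.00536 with DESeq2, 0.194 with edgeR). The call was lost without Control replicate 1, Control replicate 3 or Sox8OE replicate 3 (adjusted p up to 0.224). In the RefSeq gene order of assembly GRCg7b, which is not the assembly of the counts, CDH6 and CDH9 are direct neighbours and CDH10 follows after 1 other protein-coding gene. These neighbours thus moved in opposite directions, CDH9 higher and CDH6 and CDH10 lower. CDH5, CDH11 and CDH8 likewise are direct neighbours, of which only CDH8 was called.

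CDH5 (ENSGALG00000032349), the VE-cadherin of vessels, had 28.7, 15.7 and 92.3 normalised counts in Control and 29.3, 0 and 38.7 in Sox8OE. The samples overlapped and scattered widely within each group (log2 fold change -1.01 ± 1.23, adjusted p = 0.632). Of the endothelium and blood markers, FLI1 was called lower, with 63.7 to 77.7 normalised counts in Control and 4.30 to 9.47 in Sox8OE. No other was called. The other markers found all overlapped between groups, with log2 fold changes from 0.003 (HBZ) to 1.32 (PECAM1). Some had few counts, at most 14 for TAL1 and 39 for LMO2 before normalisation. A lower level was thus not seen across the list. CDH18 had 1 to 48 counts per sample before normalisation and overlapped, and CDH22 had at most 8.

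**Figure D5:**
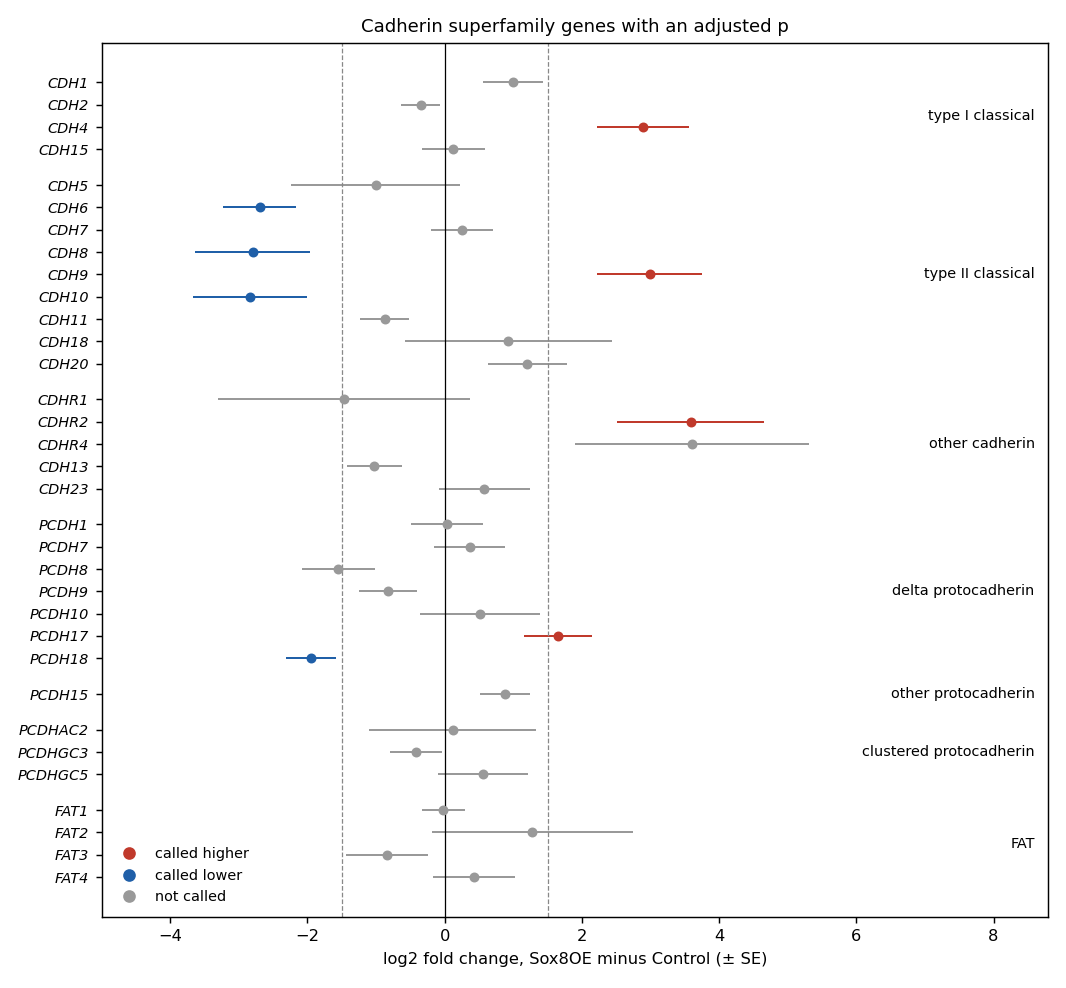
Log2 fold change of the 33 members with an adjusted p (horizontal axis, Sox8OE minus Control; bars, standard error; dashed lines, the threshold of 1.5), ordered by class. The 4 genes called lower have the lowest values. The 4 called higher lie near the upper end, where CDHR4, not called, has the highest value (3.61). The clustered protocadherins and FAT genes hold no call.

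Among the other cadherins, CDHR2 was the only gene called. CDHR2 (ENSGALG00000003285), known for joining microvilli of the gut brush border, had 3.32, 0 and 17.5 normalised counts in Control and 81.8, 53.8 and 114 in Sox8OE. Sox8OE replicate 1 was again within the range of its group. The mean rose from 6.95 ± 9.32 to 83.2 ± 30.1 (SD, n = 3 each), and the log2 fold change was 3.59 ± 1.07 (adjusted p = 0.0227 with DESeq2, 0.245 with edgeR), and the call was lost without Control replicate 1 or Sox8OE replicate 3, with an adjusted p of up to 0.207. CDHR4 had 1, 3 and 0 counts in Control and 2, 24 and 14 in Sox8OE, and was not called (adjusted p = 0.196). Had every Control sample held the floor of 3 counts, the Sox8OE mean of CDHR4 would be 5.11-fold above that of Control. That value rests on Sox8OE replicates 2 and 3, and Sox8OE replicate 1 lay within the Control range. CDHR1 (ENSGALG00000002314), a photoreceptor cadherin, had 1.11, 59.6 and 20.3 normalised counts in Control and 29.3, 0 and 0 in Sox8OE. With all samples it was far from a call (log2 fold change -1.46 ± 1.84, adjusted p = 0.642), and it was called only without Sox8OE replicate 1 or with the replicate number as a block, so its call rested on those settings.

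CDH13, the T-cadherin that is held to the membrane by a lipid anchor, had 1425, 828 and 1335 normalised counts in Control and 806, 465 and 493 in Sox8OE. The groups did not overlap, and the log2 fold change of -1.02 ± 0.40 did not pass (adjusted p = 0.106). CDH17 had no more than 4 counts in any sample. The hair cell tip link is built of CDH23 and PCDH15. CDH23 (ENSGALG00000036824) had 28.7, 133 and 77.5 in Control and 67.2, 123 and 169 in Sox8OE, and overlapped (log2 fold change 0.58 ± 0.67, adjusted p = 0.609). PCDH15 (ENSGALG00000002744) had 200, 185 and 213 in Control and 307, 333 and 458 in Sox8OE. Control samples were close to each other and all Sox8OE samples were above them, with a log2 fold change of 0.87 ± 0.36 that did not pass (adjusted p = 0.134). Leaving out Sox8OE replicate 1, the adjusted p of PCDH15 was 0.0202 at a log2 fold change of 0.98, short of the fold threshold.

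Of the 7 delta protocadherins, which act in cell sorting and in neurons, PCDH18 fell and PCDH17 rose. PCDH18 (ENSGALG00000009732) had 1398, 1504 and 1182 normalised counts in Control and 482, 266 and 311 in Sox8OE. Its groups were well apart, with replicate 1 the highest of Sox8OE. The mean fell from 1361 ± 164 to 353 ± 114 (SD, n = 3 each), and the log2 fold change was -1.95 ± 0.36 (3.85-fold lower, adjusted p = 1.90e-05 with DESeq2). Without Sox8OE replicate 1 it was -2.25 (adjusted p = 1.45e-15). Of the mesenchyme list, TWIST1, PDGFRA and ALX1 were lower as well. PRRX1 and FOXC2 were not, and both overlapped between groups (log2 fold changes 1.37 and 1.38). The part of the mesenchyme genes in the lower PCDH18 level was not tested. PCDH10, the direct neighbour of PCDH18 in the RefSeq order, had 18.05 to 40.6 in Control and 11.2 to 93.5 in Sox8OE and was not called.

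PCDH17 (ENSGALG00000016941) had 97.3, 163 and 141 normalised counts in Control and 200, 544 and 516 in Sox8OE. As at CDH4, Sox8OE replicates 2 and 3 were high and replicate 1 was just above Control. The log2 fold change was 1.65 ± 0.50 (3.13-fold, adjusted p = 0.0247 with DESeq2, 0.196 with edgeR). The call was lost without any sample other than Sox8OE replicate 1, with an adjusted p of up to 0.248, and without that replicate it was 1.97 (adjusted p = 1.40e-06). PCDH8 (ENSGALG00000036258), a protocadherin of cell movement in early mesoderm and neurons, had 260, 478 and 145 in Control and 111, 75.8 and 114 in Sox8OE. Its groups did not overlap and its log2 fold change of -1.55 ± 0.53 was just past the fold threshold, but its adjusted p of 0.0593 was not. It lay just outside the call and PCDH17 just inside. PCDH1, PCDH7, PCDH9 and PCDH10 overlapped between groups.

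The clustered protocadherins, which give neurons their surface identity, and the FAT and CELSR genes held no call. PCDHGC3 (ENSGALG00000028565) had 3153, 5348 and 4285 normalised counts in Control and 4322, 2477 and 2777 in Sox8OE. Sox8OE replicate 1 lay among the Control samples and the others below them (log2 fold change -0.42 ± 0.37, adjusted p = 0.50), and without that replicate it was -0.71 (adjusted p = 0.0203). Genes of this cluster share near-identical parts, and how reads shared between genes were counted was not given, so their values are uncertain. PCDHGC5 and PCDHAC2 overlapped, PCDHB4 had 2 counts in all, and PCDHA4 had none. FAT1 (ENSGALG00000013579), which organises actin at cell contacts, had 4705, 3687 and 5504 in Control and 4067, 4288 and 5346 in Sox8OE, the same range in both groups (log2 fold change -0.02 ± 0.32, adjusted p = 0.976). FAT4, which with DCHS proteins orients cells in a plane, had 164, 257 and 233 in Control and 82.7, 371 and 430 in Sox8OE, where replicate 1 was the lowest of all 6 samples and replicates 2 and 3 were the highest. FAT3 had 518, 283 and 352 in Control and 61.2, 245 and 339 in Sox8OE, and was again lowest in Sox8OE replicate 1. FAT2 had 1 to 59 counts per sample and CELSR2 at most 12.1 normalised counts.

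The genes that act with cadherins were read from the same fit. Of 42 listed, 32 were found by name, and 0 rose and 2 fell past both thresholds, SNAI1 and TWIST1. Over all genes 0.961% were called lower. At an unadjusted p under 0.05 there were 7 of 32 with DESeq2, near the 21.8% of all genes at that level, and edgeR called 0 of 30 with 7 at that level. SNAI1 (ENSGALG00000008018), known as a repressor of CDH1 in cells leaving an epithelium, had 2470, 1330 and 1668 normalised counts in Control and 693, 199 and 335 in Sox8OE. All Sox8OE samples were below Control, replicate 1 least so. The log2 fold change was -2.15 ± 0.50 (adjusted p = 0.00148 with DESeq2, 0.121 with edgeR), lost without Control replicate 1 (adjusted p = 0.0633). TWIST1 (ENSGALG00000041640), a regulator of mesenchyme that is also in the mesenchyme list, had 126, 238 and 162 in Control and 13.8, 18.7 and 16.1 in Sox8OE. Replicate 1 of Sox8OE was as low as the others, and the log2 fold change of -3.44 ± 0.53 passed without any 1 sample (adjusted p = 4.73e-08 with DESeq2, 0.0583 with edgeR). ALX1 and PDGFRA of that list were lower too, PRRX1 and FOXC2 were not, and their part in the lower SNAI1 level was not tested.

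FZD6 (ENSGALG00000030626), a Frizzled receptor of planar polarity, had 2878, 2034 and 2834 normalised counts in Control and 1663, 591 and 744 in Sox8OE. Its groups did not overlap, and its adjusted p of 0.0494 at a log2 fold change of -1.37 ± 0.45 did not meet the fold threshold. At the threshold of 1.5 it was called without Sox8OE replicate 1, at -1.96, and with the replicate block, and it also passed with a fold threshold of 1 or none. The 7 catenins found had no call and all overlapped between groups, with log2 fold changes of -0.23 for CTNNB1, the beta-catenin gene, and 0.60 for JUP, the plakoglobin gene. The 4 desmosome and 3 junction linker genes had none either. The partner list had a median log2 fold change of 0.065, against 0.079 for all genes.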

How the data were processed

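The authors deposited raw read counts per Ensembl gene, 1 column per sample, with no normalisation. Per the submitters' processing notes, reads were trimmed with Trim Galore and counted with featureCounts on galGal6, and the study's methods name STAR within the default nf-core pipeline. The annotation release, strand setting and treatment of shared reads are not given in the sources used here. The number of sorted cells per sample differs between the sources and is uncertain. Libraries were amplified from few cells without molecular identifiers, so counting error is a lower limit. All 6 columns were used, and 0 columns of values were left out.

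Groups were taken from sample titles. Counts of all 24356 genes were fitted with DESeq2 1.42.0 under R 4.3.3, following the study, with group as the only term, and p-values were adjusted by Benjamini-Hochberg over all genes tested. Depth was 26326573 to 46586658 counts per sample. A group with at most 3 counts in each library was taken as at the floor. Alternatives were edgeR 4.0.16 (quasi-likelihood), limma 3.58.1 (voom), TMM factors, at least 10 counts in 3 samples, no independent filtering, fold thresholds of 1 or none, a replicate block, leaving out each sample, and for the ratio a pseudocount of 1. The code of the fits was checked on simulated counts with known changes at well-counted genes, which does not bear on calls at low counts.

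Members, classes, partner and marker lists were chosen with earlier results of these data known. Genes named in full were the ectoderm, placode, crest, hair cell and endothelial types, members with an adjusted p under 0.05 or called without Sox8OE replicate 1, and the 5 with the highest Control mean. Partners were named in full at an adjusted p under 0.05. Other genes named were chosen after their values were seen. Gene order was taken from a RefSeq table of assembly GRCg7b, in which 38 members were matched by name. No coordinates or sequences were used.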

Additional observations from a re-analysis of the deposited data

How the results depend on the processing

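The number of cadherin genes called stayed at 8 with TMM factors, with the filter of 10 counts, without independent filtering and with a fold threshold of 1 or none. It fell to 0 with edgeR and 0 with limma voom, and ran from 3 (without Control replicate 1 or Sox8OE replicate 3) to 10 (without Sox8OE replicate 1) when samples were left out in turn. Over all genes the 686 calls became 41 with edgeR, 33 with limma voom and 248 to 3050 without single samples. The partner calls, 2, became 0 with edgeR, 0 with limma voom and 1 to 5 without single samples. Whether the replicate numbers mark pairs is not given by the labels and was not settled here. Same-numbered samples deviated together at r = 0.30, 0.31 and 0.069, and the other combinations at -0.30 to 0.087. Sox8OE replicate 3 correlated best with Control replicate 2 (0.087). With the replicate block, 9 cadherins (4 higher, 5 lower), 3 partners and 1274 genes in all were called. The log2 ratio of CDH1 to CDH2 differed by 1.01 to 1.62 without single samples, and a pseudocount of 1 gave 1.36. The exact test within the block gave p = 0.25, the smallest it allows. Over 24 named genes, 233 of 285 alternative values kept direction and side of the threshold, 39 lost the call, 5 gained it and 8 changed sign. Those 8 were of uncalled genes: FAT1 (0.012 with edgeR, 0.019 with limma voom, -0.17 to 0.12 without single samples), CDH5 (-1.62 to 0.037 without single samples) and CDH19 (0.43 with the block, -2.75 to 3.21 without single samples), and the cause was not tested. The 7 cadherins without an adjusted p, CDH19 and CELSR2 among them, had too few counts for one, and the cause of the low counts was not tested.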

Other observations

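The RefSeq table of assembly GRCg7b held 58 names that fit the rule, and 20 of these, among them CDH3, CDH12, CELSR1, CELSR3, DCHS1 and most PCDHA genes, had no gene of that name in the count table and were not analysed here. Sox8OE replicate 1 had the lowest level of FAT4 and FAT3 among all 6 samples, 82.7 and 61.2 normalised counts. This place was not particular to the FAT genes. The same sample was also lowest at PCDHGC5 (34.5) and PCDH10 (11.2), and at CELSR2, which had few counts. At the called genes CDH4, PCDH17, CDH6, CDH10 and PCDH18, Sox8OE replicate 1 lay between Control and the rest of its group. At CDH8, CDH9 and CDHR2 it lay within the range of Sox8OE replicates 2 and 3.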
